A study of Mus musculus with 16 samples.

Results

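Accessibility was examined at 40 genes of DNA replication and mitosis, chosen by name from 21887 protein-coding genes as textbook components of these processes. Peaks of 16 ATAC-seq libraries were merged into 86616 regions wherever they overlapped by 1 bp or more, and 113 of these regions had one of the 40 genes as their nearest protein-coding gene body within 100 kb. Of the 113 regions, 105 were called in at least 2 libraries, against 80352 of all regions. ATAC-seq maps open chromatin by the insertion of sequencing adapters with a transposase, and a call means that the library's own peak list overlaps the region. The cultures were mouse prostate organoids, which grow as small epithelial structures in gel. The 4 groups of 4 libraries were Control given ethanol (EtOH, the solvent), Control given 10 nM dihydrotestosterone (DHT, the potent androgen), SPOPmut given EtOH and SPOPmut given 10 nM DHT, written below as Control EtOH, Control DHT, SPOPmut EtOH and SPOPmut DHT. Each treatment lasted 24 h in organoid medium from which mouse EGF had been left out, and every library, Control or SPOP-mutant, also carries the label sgNT. SPOP is the substrate adaptor of a ubiquitin ligase and is recurrently mutated in human prostate cancer. The labels name neither the SPOP allele nor what drives it, nor do they tie each library to its own culture or mouse, so p-values here reflect no more than the spread from library to library, which may be technical. In such bulk cultures a smaller share of cells with an open site and less accessibility per cell cannot be told apart.

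Cells replicate their DNA from origins that are licensed in G1, when CDC6 and CDT1 load the MCM helicase, and fired in S phase, when CDC45, the GINS complex and MCM10 turn that helicase into a moving fork. Mitosis then follows the activation of CDK1 by cyclin B and CDC25 phosphatases, while Aurora kinases, PLK1 and the BUB and TTK checkpoint kinases control the spindle. Genes of the replication phase are classically driven by E2F factors, and genes of the mitotic phase by complexes that read a CHR element together with CCAAT boxes bound by NF-Y, with B-MYB (Mybl2) and FOXM1 as partners. In the prostate, androgen supports the growth and the differentiation of the epithelium.

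The promoters of the genes hold these elements in their DNA, as 7 of them show. The stretches are the 200 bases before the transcription start, 5′ to 3′ in the direction of the gene, from the RefSeq table of the GRCm38.p6 assembly (the same assembly as mm10). Capitals mark matches on either strand to an E2F sequence (spelled TTTGGCG, or TTTCGCG in a variant, or in another variant GGCGCGA), to a CHR (spelled TTTGAA, or TTCGAA in a variant) or to a CCAAT box, whose other strand reads ATTGG. Matches may overlap, and runs of capitals longer than one motif are overlapping or abutting matches. Mcm6 is shown for its E2F matches and Cdk1 for the pairing of CHR with CCAAT. The others are shown because calls at regions elsewhere at these genes, not at the stretches printed, differed between groups.
Mcm6: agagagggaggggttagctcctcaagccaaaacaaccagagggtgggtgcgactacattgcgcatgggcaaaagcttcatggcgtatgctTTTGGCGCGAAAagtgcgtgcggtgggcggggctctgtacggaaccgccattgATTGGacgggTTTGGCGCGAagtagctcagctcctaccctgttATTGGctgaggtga
Mcm10: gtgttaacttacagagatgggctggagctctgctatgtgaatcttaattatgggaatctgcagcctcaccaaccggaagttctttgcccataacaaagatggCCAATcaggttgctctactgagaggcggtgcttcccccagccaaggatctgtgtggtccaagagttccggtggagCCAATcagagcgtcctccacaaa
Rrm1: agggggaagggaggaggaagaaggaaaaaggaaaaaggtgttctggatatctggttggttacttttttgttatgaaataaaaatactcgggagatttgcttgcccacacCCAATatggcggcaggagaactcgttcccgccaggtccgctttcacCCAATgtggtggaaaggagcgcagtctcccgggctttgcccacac
Rrm2: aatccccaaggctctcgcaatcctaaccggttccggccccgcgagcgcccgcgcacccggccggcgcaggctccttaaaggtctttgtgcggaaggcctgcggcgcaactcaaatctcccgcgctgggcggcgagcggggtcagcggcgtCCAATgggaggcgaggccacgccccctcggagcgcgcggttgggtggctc
Cdk1: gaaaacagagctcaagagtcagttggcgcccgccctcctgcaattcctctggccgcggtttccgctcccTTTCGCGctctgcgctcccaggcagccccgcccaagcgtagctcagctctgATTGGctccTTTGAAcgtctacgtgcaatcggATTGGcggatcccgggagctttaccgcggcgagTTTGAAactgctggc
Bub1b: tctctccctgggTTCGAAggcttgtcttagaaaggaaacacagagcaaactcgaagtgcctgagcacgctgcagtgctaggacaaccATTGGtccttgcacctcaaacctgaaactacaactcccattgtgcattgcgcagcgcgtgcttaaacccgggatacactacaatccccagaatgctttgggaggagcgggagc
Mki67: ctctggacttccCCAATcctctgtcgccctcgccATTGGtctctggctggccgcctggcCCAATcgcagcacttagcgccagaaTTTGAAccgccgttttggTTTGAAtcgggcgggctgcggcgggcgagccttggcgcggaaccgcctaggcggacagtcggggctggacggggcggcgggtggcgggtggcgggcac
The Mcm6 stretch lies at chr1:128359706-128359905 on the minus strand and holds 3 overlapping E2F matches that begin at -110 to -105, 2 more at -47 and -44 (counted from the start), and 2 CCAAT boxes. That of Mcm10 lies at chr2:5012792-5012991 (minus) with 2 CCAAT boxes, and its E2F match starts at position 44 after the start, outside the bases shown. The Rrm1 stretch at chr7:102441495-102441694 (plus) holds 2 CCAAT boxes, and that of Rrm2 at chr12:24708054-24708253 (plus) holds 1. The Cdk1 stretch at chr10:69352913-69353112 (minus) holds 2 CHR matches, 2 CCAAT boxes and 1 E2F match. The Bub1b stretch at chr2:118598011-118598210 (plus) holds 1 CHR and 1 CCAAT box, and that of Mki67 at chr7:135716380-135716579 (minus) holds 2 CHR matches and 3 CCAAT boxes.

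Over the longer windows of the table (250 bases before to 50 after a start), which listed 32 of the 40 genes, an E2F match was present in 11 genes (34.4%), against 7.99% of all 17492 protein-coding genes with a listed start. A CHR match was present in 14 (43.8%, against 20.2% of all genes) and a CCAAT box in 26 (81.2%, against 42.3%). GGGCGG, the Sp1 sequence, searched in the same way, was present in 27 (84.4%, against 49.2%). The 2 elements were spread unevenly over the roles. E2F matches were found in 5 of 7 licensing genes and in 1 of 8 genes of the spindle and its checkpoint (Birc5). CHR matches were found in 2 of those 7 licensing genes (Mcm2 and Mcm7) and in 6 of those 8 spindle genes (Bub1, Bub1b, Aurka, Plk1, Cdc20 and Ttk). These shares describe letters in the DNA and say nothing of binding. Genes without an entry in the table were Gins1, Ccna2, Pole, Foxm1, Gins2, Aurkb, Mcm4 and Cdc25c.

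Nearly all of the genes had a start region called in every library. Of the 32 genes with a listed start, 31 (96.9%) had a region within 1 kb of it that was called in all 16 libraries, as had 51.1% of the 17492 genes with a listed start. Counting the ends of the gene body where no start was listed, 39 of the 40 genes had such a region. The exception was E2f2, an activating E2F factor: neither of its 2 listed starts had a region within 1 kb. Signal percentiles, which rank a peak by the authors' own signal value within its library's list, ran for the start regions from a median over libraries of 49.6 for Ccnb2 (cyclin B2) to 99.6 for Rrm2 (small subunit of ribonucleotide reductase). Their median was 80.7, and their widths ran from 710 bp for Mcm3 to 6135 bp for Rrm2. The start regions of Pcna, the sliding clamp of the fork, and of E2f1 ranked at 92.9 and 93.9. That of Mki67, which encodes the proliferation marker Ki-67, ranked at 82.9, those of Plk1 and Top2a (topoisomerase II) at 80.7 and 73.9, and those of Rrm1 and Bub1b at 58.3 and 50.3. The summit lay within 100 bp of the start in 17 genes and within 300 bp in 27 of the 31. Besides these, 4 regions counted at the genes themselves, within 1 kb of a start or gene end, varied. They were called in at least 2 libraries and lay at Cdt1, Ccnb1, Cdc25c and Bub1. At the other end of the Foxm1 body, a region counted at the neighbour Tex52 was called in 15 libraries. In Cdk1 the summit lay 41 bases past the start in the median library, and in Mki67 at -166, among the CCAAT boxes and CHR matches printed above.

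At 5 of the 39 genes the start region was counted at a neighbouring gene: Mcm4 (counted at Prkdc), Pole (Pxmp2), Aurka (Cstf1), Cdc45 (Ufd1) and Foxm1 (Rhno1). The neighbour was nearer to the region's midpoint except at Aurka. There the midpoint lay inside the gene itself, and the rule for overlapping bodies (the shortest) gave the region to Cstf1. Mcm4, Pole and Aurka therefore had no region of their own, although their start regions were called in all 16 libraries. Counting only regions called in at least 2 libraries, as the counts per gene here do, a further 15 genes had a single region. Another 22 had at least 2 and entered the gene test. In 18 genes this count was the same in every library. Besides the 3 with none, these were Gins2, with 3 regions in each library, and 14 genes with 1 region: Top2a, Pcna, Mcm3, Mcm5, Mcm7, Cdc6, Ccna2, Ccnb2, Cdk2, Cdc20, Aurkb, Plk1, E2f1 and Cenpe. For Top2a, Pcna, Plk1 and E2f1 the counts were thus 1 in each of the 4 libraries of each group. Mcm3, Mcm5, Mcm7, Cdc6 and Cdc20 each had a further region, called in 1 SPOPmut EtOH library and left out of the count.

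**Figure D1:**
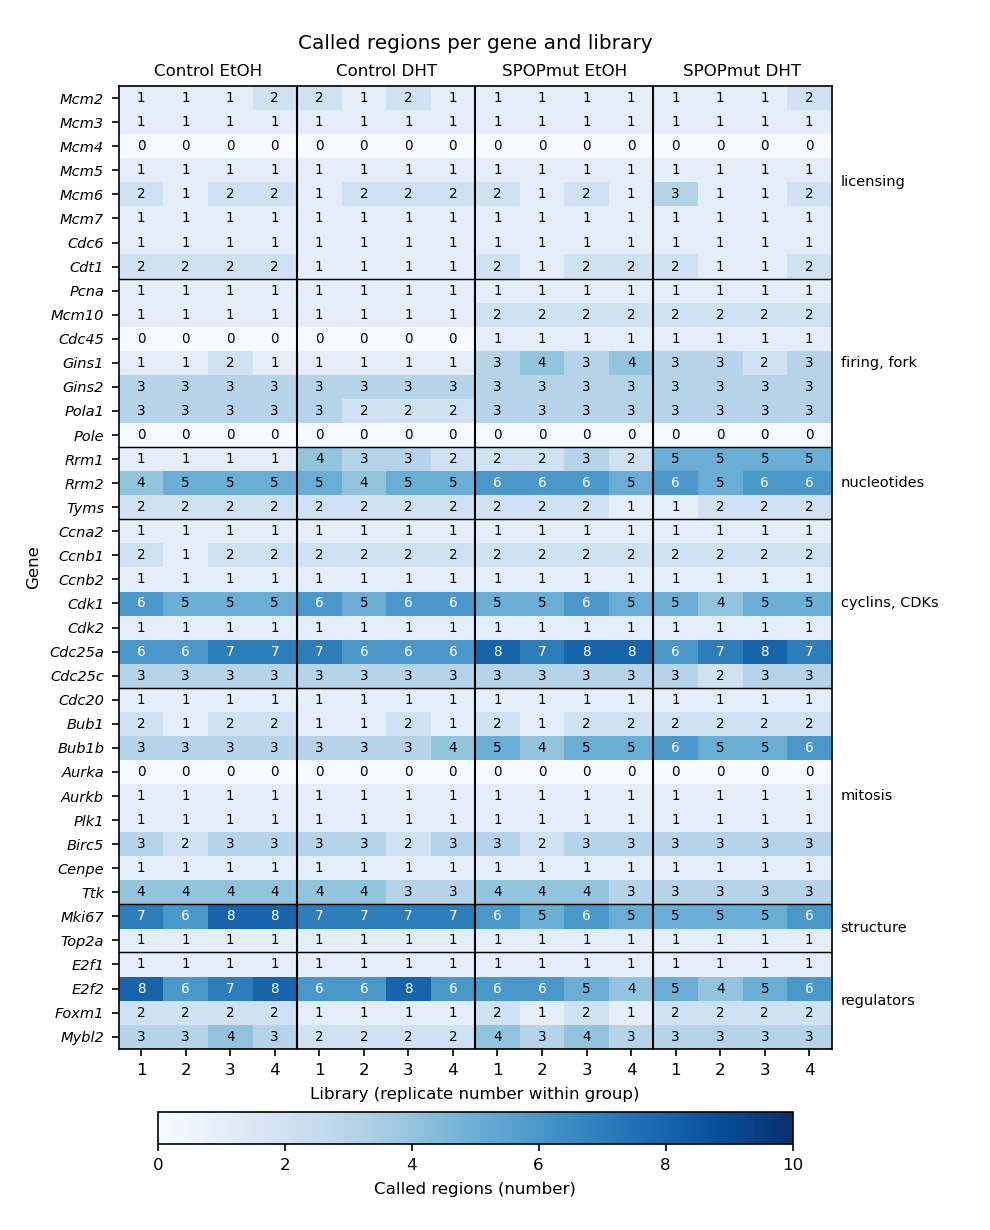
Called regions of each of the 40 genes (rows, grouped by role) in each of the 16 libraries (columns, by group and replicate number); colour and digit give the number of called regions. In 18 of the 40 rows the number is the same in all libraries, and the rows of Mcm10, Cdc45, Gins1, Rrm1, Rrm2, Bub1b, Mki67 and E2f2 differ between Control and SPOPmut.

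Between the genotypes, 5 of the 22 genes tested had more called regions in SPOPmut, 2 had fewer, and 15 did not pass. The 5 were Mcm10, Gins1, Rrm1, Rrm2 and Bub1b, and the 2 were Mki67 and E2f2. Over all 11212 genes tested, 19.4% had more called regions in SPOPmut and 12.1% had fewer, so the counts for the replication and mitosis genes lay near the background. When only peaks with a signal of at least 400, 2 times the smallest in the lists, were counted, Gins1 and Bub1b kept their calls and the other 5 lost theirs. Of the 19 genes of the set tested that way, 3 others were called higher (Ccnb1, Cdc25a and Mybl2) and 2 lower (Tyms and Cdk1). Over all 9395 genes tested that way, 2031 were higher and 1102 lower. The median difference was 0.125 called regions over the 22 genes and 0 over all genes. The test was an exact permutation test over the 16 libraries, with genotype labels exchanged within each treatment and Benjamini-Hochberg adjustment over all genes. Of all genes called, 61.7% were higher in SPOPmut, a split that became 53.2% with lists of equal length, 51.2% when counts were taken as shares of each library's calls and 48.6% after correction for each chromosome's call rate.

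Together, the 40 genes took 0.141% ± 0.00356 (SD, n = 4) of the called regions in Control EtOH, 0.139% ± 0.00422 in Control DHT, 0.146% ± 0.00193 in SPOPmut EtOH and 0.146% ± 0.00547 in SPOPmut DHT. As counts these were 82.8 ± 4.72, 79.5 ± 2.38, 87.2 ± 4.92 and 88 ± 4.16 called regions. The share in SPOPmut was 1.04 times that in Control with EtOH and 1.05 times with DHT. The shares of single libraries overlapped between genotypes under both treatments. The mean of these genotype ratios, 1.044, stayed above 1 under the alternatives but was 1.021 with stricter peaks and 1.022 after chromosome correction. The share with DHT was 0.982 times that with EtOH in Control and 0.996 times in SPOPmut. Its direction was not stable: the mean of these ratios, 0.989, was above 1 with stricter peaks (1.035), with regions within 10 kb of a gene body (1.026), with 50% coverage of a region (1.016) and with equal list length (1.001).

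**Figure D2:**
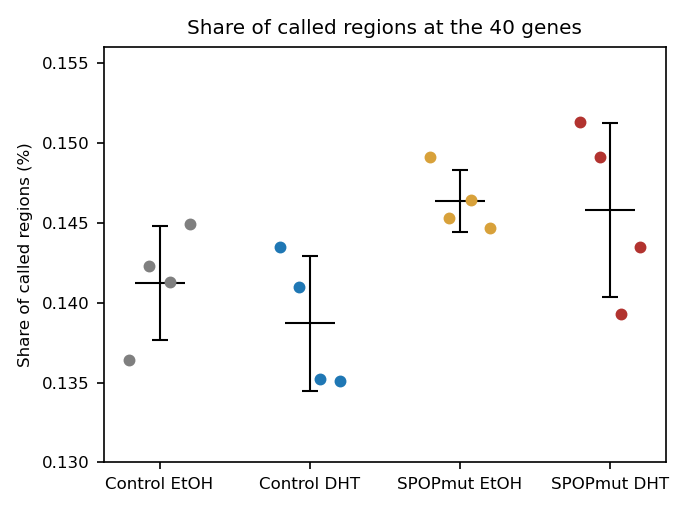
Share of each library's called regions that lay at the 40 genes (y axis, percent, not starting at 0), by group; points are libraries, the horizontal bar is the mean and the error bar the SD (n = 4). Points run from 0.135 to 0.151% and overlap between genotypes within each treatment, while Control DHT and SPOPmut EtOH do not overlap.

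Genes that license origins showed no call of difference. Of 8 genes, 3 had enough regions for the test and none passed in either direction. Mcm2, a helicase subunit, had 1, 1, 1 and 2 called regions in Control EtOH, 2, 1, 2 and 1 in Control DHT, 1 in each SPOPmut library with EtOH, and 1, 1, 1 and 2 in SPOPmut DHT. The libraries with 2 stood in 3 of the 4 groups, and the region that varied lay 5085 bp inside the gene. Mcm6, another subunit, ranged from 1 to 3 and Cdt1, the loading factor that is destroyed once origins have fired, from 1 to 2. Cdt1's second region, 974 bp past the start, was called in 4, 0, 3 and 2 libraries of Control EtOH, Control DHT, SPOPmut EtOH and SPOPmut DHT. The other 5 (Mcm3, Mcm4, Mcm5, Mcm7 and Cdc6) did not vary in their counts.

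At the 7 genes of origin firing and the fork, called regions of Mcm10, Gins1 and Cdc45 were more frequent in SPOPmut, while Gins2, Pcna and Pole did not vary. Over the 7, called regions summed to 9.25 ± 0.5 in Control EtOH, 8.25 ± 0.5 in Control DHT, 13.5 ± 0.577 in SPOPmut EtOH and 12.8 ± 0.5 in SPOPmut DHT (SD, n = 4), and 2 of the 4 genes tested were higher in SPOPmut, beside the 19.4% of all genes. Both, Mcm10 and Gins1, lie on chromosome 2, whose share of all called regions was 19.9% larger in SPOPmut. Mcm10, which joins the active helicase to the polymerase, had 1 called region in each of the 8 Control libraries and 2 in each of the 8 SPOPmut libraries. The groups did not overlap, and the difference of 1 had an adjusted p of 0.00325 in the exact permutation test. The added region, chr2:5009177-5009761, lies inside the gene 3322 bp past the start, was called in 0 of 8 Control and 8 of 8 SPOPmut libraries (adjusted p = 0.00961, exact stratified test over regions) and had a median signal percentile of 32.7.

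Gins1, a subunit of the GINS complex, had 1, 1, 2 and 1 called regions in Control EtOH, 1 in each library of Control DHT, 3, 4, 3 and 4 in SPOPmut EtOH and 3, 3, 2 and 3 in SPOPmut DHT. Within each treatment every SPOPmut library was above every Control library. The difference was 2 called regions (adjusted p = 0.00325, exact permutation test). Of the 3 regions that varied, chr2:150913657-150914424 inside the gene passed by itself, with calls in 1 of 8 Control and 8 of 8 SPOPmut libraries (adjusted p = 0.0292, exact stratified test) and a median percentile of 57.4. A second one, chr2:150916807-150917179, was called in the 4 SPOPmut libraries with EtOH and in no other.

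Cdc45, a core part of the moving helicase, had 1 region counted as its own and was not tested as a gene. That region, chr16:18788892-18789723, lies inside the gene 22665 bp past the start. It was called in none of the 8 Control libraries and in all 8 SPOPmut libraries (adjusted p = 0.00961, exact stratified test over regions), with a median percentile of 31.4. Pola1, the catalytic subunit of the primase-associated polymerase, had 3 called regions in every library except 3 of Control DHT, which had 2 (difference between genotypes 0.375, adjusted p = 0.274, exact permutation test). Pole, the leading-strand polymerase, had no region of its own.

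The deoxynucleotide genes held the one call under DHT. Rrm1, the large subunit of ribonucleotide reductase, had 1 called region in each library of Control EtOH, 4, 3, 3 and 2 in Control DHT, 2, 2, 3 and 2 in SPOPmut EtOH, and 5 in each library of SPOPmut DHT. The 4 groups stood in steps: with DHT every library was above those with EtOH of its genotype, and every SPOPmut library was above the Control libraries of its treatment. The difference was 1.62 called regions between genotypes (adjusted p = 0.00325) and 2.38 between DHT and EtOH (adjusted p = 0.0119, both by the exact permutation test). With the replicate number as a block the DHT call was lost (adjusted p = 0.149, exact block permutation), under a setting that called 0 genes for DHT. The DHT effect was 2 called regions in Control and 2.75 in SPOPmut, a difference of 0.75 that did not pass (adjusted p = 1, permutation test).

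Each of the 4 regions behind these counts had its own pattern. The first, chr7:102458880-102459274, lies in the gene 17382 bp past the start and was called in 0, 1, 4 and 4 libraries of Control EtOH, Control DHT, SPOPmut EtOH and SPOPmut DHT (genotype adjusted p = 0.0292, exact stratified test, with a median percentile of 15.1). In the same order of groups, chr7:102463066-102463480 was called in 0, 1, 0 and 4 libraries, and chr7:102467495-102468180 in 0, 2, 1 and 4. The last, chr7:102472194-102473292, lies 2972 bp beyond the gene and was called in 0, 4, 0 and 4 (DHT adjusted p = 0.0231, exact stratified test, median percentile 50.6). The first thus followed genotype, the last followed DHT, and the pair in between was called in every library of SPOPmut DHT and in few others.

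Rrm2 had 4, 5, 5 and 5 called regions in Control EtOH, 5, 4, 5 and 5 in Control DHT, 6, 6, 6 and 5 in SPOPmut EtOH and 6, 5, 6 and 6 in SPOPmut DHT. The groups touched at 5, and the difference of 1 passed with an adjusted p of 0.025 (exact permutation test). No Rrm2 region passed by itself. The nearest, chr12:24716799-24717333, which lies 2920 bp beyond the gene, was called in 0 of 8 Control and 6 of 8 SPOPmut libraries (adjusted p = 0.104, exact stratified test). Rrm2's count lost its call when all lists were cut to the same length (difference 0.625, adjusted p = 0.261, exact permutation test). Tyms, thymidylate synthase, had 1 or 2 called regions and did not pass.

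**Figure D3:**
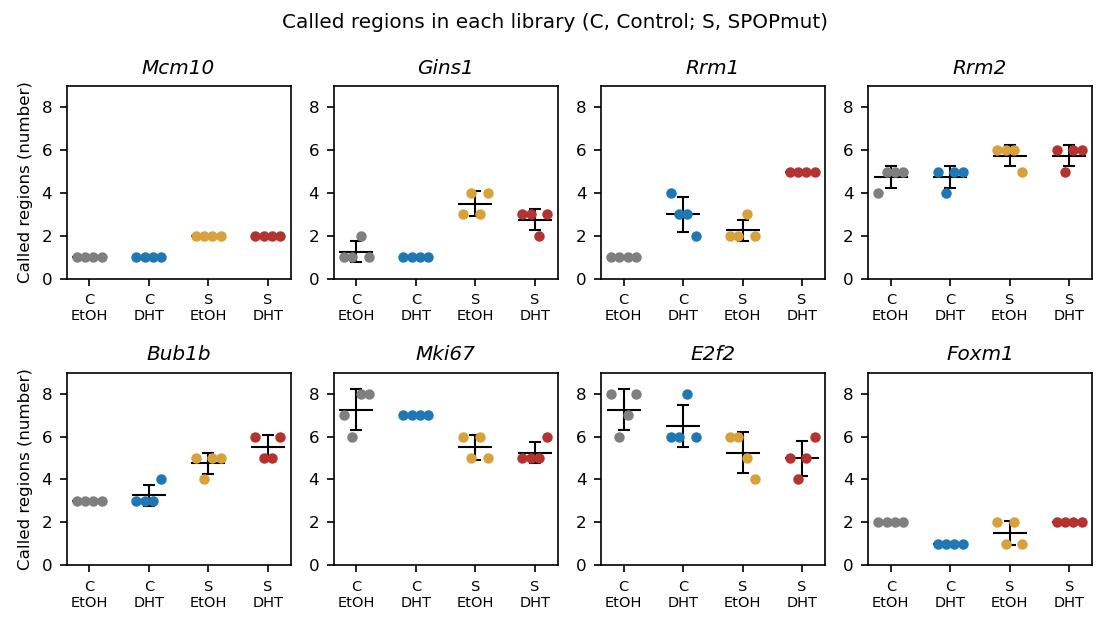
Called regions (y axis, number) of 8 genes in each library (points), by group (C, Control; S, SPOPmut); the horizontal bar is the mean and the error bar the SD (n = 4). Mcm10, Gins1, Rrm1 and Bub1b sit higher in SPOPmut under both treatments, Mki67 and E2f2 lower on average, and Rrm1 rises with DHT in both genotypes.

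Among cyclins, cyclin-dependent kinases and their phosphatases, none of the 4 genes tested passed for genotype or DHT. Under some alternative settings Cdk1, Cdc25a or Ccnb1 did pass for genotype. Cdk1, the kinase that starts mitosis, had 6, 5, 5 and 5 called regions in Control EtOH, 6, 5, 6 and 6 in Control DHT, 5, 5, 6 and 5 in SPOPmut EtOH and 5, 4, 5 and 5 in SPOPmut DHT. The groups overlapped (difference between genotypes -0.5, adjusted p = 0.38, exact permutation test). One of its regions, chr10:69340052-69340490 inside the gene, was called in 4, 4, 3 and 0 libraries of Control EtOH, Control DHT, SPOPmut EtOH and SPOPmut DHT. Ccnb1, cyclin B1, had 2, 1, 2 and 2 called regions in Control EtOH and 2 in every library of the other 3 groups.

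Cdc25a, a phosphatase that activates cyclin-dependent kinases, had the most regions of this role, from 6 to 8 in a library. Its difference of 1 missed the threshold (adjusted p = 0.0622, exact permutation test), and a region 14305 bp beyond the gene, chr9:109907952-109908447, was called in 2 of 8 Control and 8 of 8 SPOPmut libraries (adjusted p = 0.104, exact stratified test). Its relative Cdc25c had 3 called regions in all libraries but 1. Ccna2 (cyclin A2), Ccnb2 and Cdk2 did not vary.

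Among the 9 genes of the spindle and its checkpoint, 4 were tested and Bub1b passed. Bub1b encodes BUBR1, a part of the checkpoint complex that delays anaphase. It had 3 called regions in each library of Control EtOH, 3, 3, 3 and 4 in Control DHT, 5, 4, 5 and 5 in SPOPmut EtOH and 6, 5, 5 and 6 in SPOPmut DHT. Within each treatment all SPOPmut libraries were above all Control libraries, by 2 called regions in the mean (adjusted p = 0.00325, exact permutation test). The start region and those at -11723 and 49921 bp from the start were called in all 16 libraries.

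The difference came from the 3′ part of Bub1b. The region chr2:118637995-118639003, in the gene 40288 bp past the start, was called in 1 of 8 Control and 8 of 8 SPOPmut libraries. Its neighbour chr2:118641116-118641499, near the 3′ end, was called in 0 of 8 and 7 of 8. Both passed with an adjusted p of 0.0292 (exact stratified test), at median percentiles of 15.5 and 23.4. In the related kinase gene Bub1, counts were 1 or 2 and did not pass (difference 0.375, adjusted p = 0.497, exact permutation test).

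Ttk, the kinase that recruits the checkpoint to kinetochores, had 3 or 4 called regions, 3 in every library of SPOPmut DHT (DHT difference -0.625, adjusted p = 0.146, exact permutation test). Birc5 (survivin, of the chromosomal passenger complex) had 2 or 3. Cdc20 (activator of the anaphase-promoting complex), Aurkb, Plk1 and Cenpe (a kinetochore motor) had 1 region each in all libraries, and Aurka had none of its own.

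**Figure D4:**
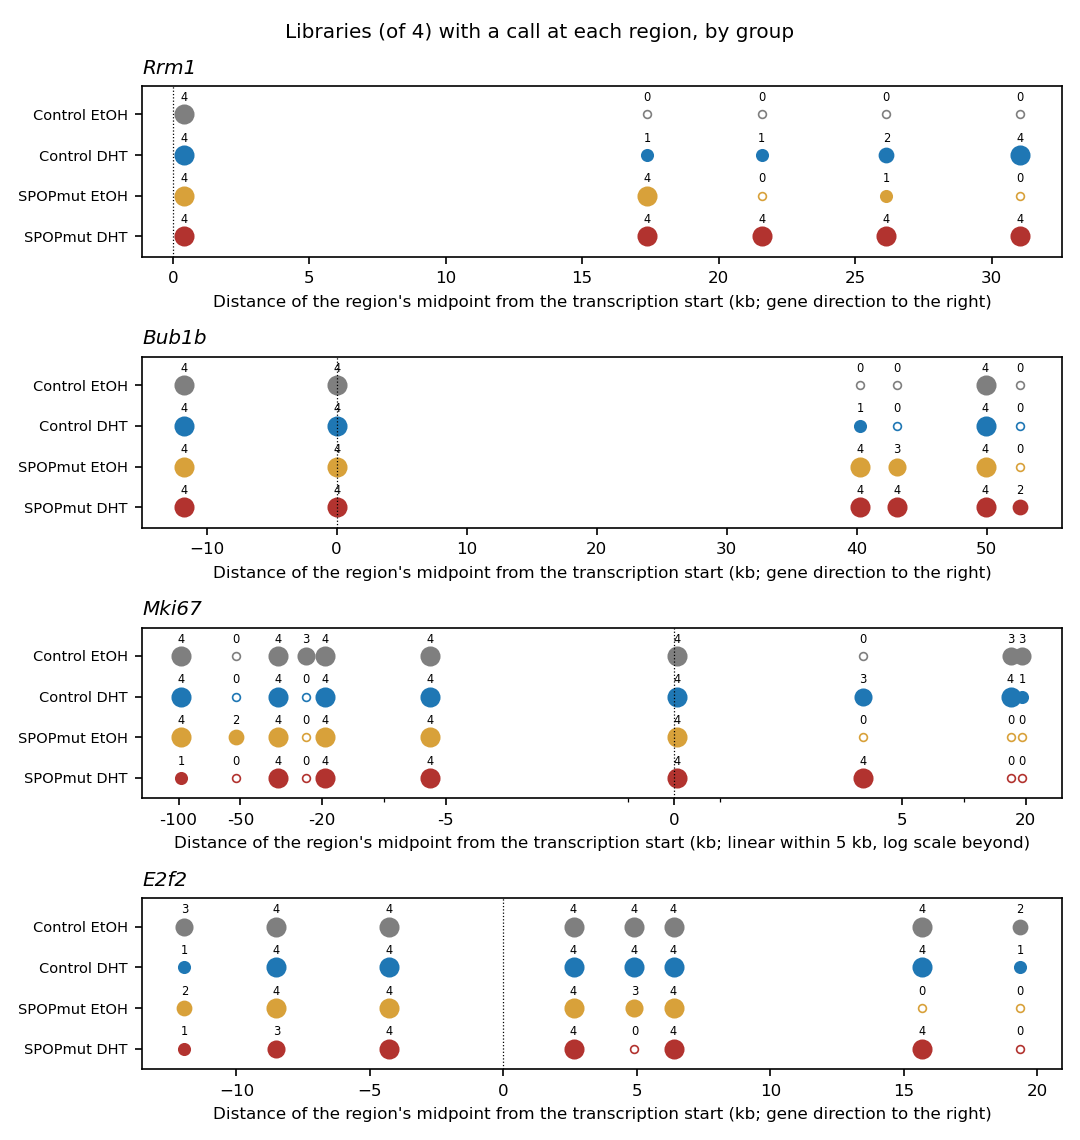
Number of libraries (of 4) with a call at each region of Rrm1, Bub1b, Mki67 and E2f2, by group (rows), against the distance of the region from the transcription start (x axis, kb); circle size and digit give the number, and open circles are 0. The start regions of Rrm1, Bub1b and Mki67 are called in all libraries, and the changes lie elsewhere.

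Mki67 had 7, 6, 8 and 8 called regions in Control EtOH, 7 in each library of Control DHT, 6, 5, 6 and 5 in SPOPmut EtOH and 5, 5, 5 and 6 in SPOPmut DHT. The genotypes met at 6 with EtOH and did not overlap with DHT. The difference was -1.75 called regions (adjusted p = 0.00784, exact permutation test), while DHT against EtOH gave -0.25 (adjusted p = 1). Of its 10 regions, 4 were called in all 16 libraries. They were the start region and those at -5977, -19281 and -32758 bp. The second of these upstream regions, chr7:135734505-135736816, had a median percentile of 98.6, the highest of the 67 regions of the 40 genes that lie over 1 kb from a start (for genes without a listed start, from a gene end).

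The Mki67 difference came mostly from regions of low rank. Inside the gene, chr7:135699180-135699873 was called in 7 of 8 Control and 0 of 8 SPOPmut libraries (adjusted p = 0.0292, exact stratified test, median percentile 21.8). Close to it, chr7:135697019-135697377 was called in 4 of 8 and 0 of 8 (median percentile 4.84). Nearer the start, chr7:135711934-135712553, which lies 4136 bp past it, was called in none of the 8 libraries with EtOH, in 3 of 4 with DHT in Control and in 4 of 4 with DHT in SPOPmut. Its DHT test missed the threshold (adjusted p = 0.0717, exact stratified test), and it was the only one of the 10 called in DHT libraries of both genotypes and in no EtOH library. Top2a, the other gene of chromosome structure, did not vary.

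Of the transcription regulators, E2f2 had fewer called regions in SPOPmut. Its counts were 8, 6, 7 and 8 in Control EtOH, 6, 6, 8 and 6 in Control DHT, 6, 6, 5 and 4 in SPOPmut EtOH and 5, 4, 5 and 6 in SPOPmut DHT. The genotypes met at 6 under both treatments, and the difference was -1.75 (adjusted p = 0.0211, exact permutation test). None of its 8 regions passed by itself. Among them, chr4:136185365-136186020 was called in 4, 4, 3 and 0 libraries of Control EtOH, Control DHT, SPOPmut EtOH and SPOPmut DHT, and chr4:136196128-136196811 in 4, 4, 0 and 4. The same group was thus not the low one at both.

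Mybl2 had 3, 3, 4 and 3 called regions in Control EtOH, 2 in each library of Control DHT, 4, 3, 4 and 3 in SPOPmut EtOH and 3 in each library of SPOPmut DHT. With DHT the genotypes did not overlap, but over both treatments the difference of 0.625 did not pass (adjusted p = 0.115), and the DHT difference of -0.875 missed the threshold (adjusted p = 0.0578, exact permutation test). A region before the gene, chr2:163051617-163052058, 2489 bp outside the gene body, did pass, with calls in 1 of 8 Control and 8 of 8 SPOPmut libraries (adjusted p = 0.0292, exact stratified test, median percentile 37.4). A region near the gene's 3′ end, chr2:163084232-163084732, was called in 4, 0, 2 and 0 libraries of Control EtOH, Control DHT, SPOPmut EtOH and SPOPmut DHT.

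Foxm1 had 2 called regions in each library of Control EtOH, 1 in each library of Control DHT, 2, 1, 2 and 1 in SPOPmut EtOH and 2 in each library of SPOPmut DHT. The DHT effect was thus -1 in Control and 0.5 in SPOPmut. The difference of 1.5 had an unadjusted p of 0.00612 and an adjusted p of 0.511 (permutation test, which assumes no DHT effect), and so did not pass. In Control, chr6:128364561-128365285 inside the gene was called in 4 libraries with EtOH and in 0 with DHT, and in SPOPmut it was called in all 8. E2f1 had 1 called region in each library.

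For DHT over both genotypes, 1 of the 22 genes (Rrm1) had more called regions and none had fewer, beside 5.41% and 3.14% of all genes tested. The median difference was -0.0625 called regions over the 22 genes and 0 over all genes. At an unadjusted p under 0.05 (exact permutation test), 4 of the genes would count (Rrm1, Mybl2, Cdt1 and Ttk), as would 2608 of all genes (23.3%). A difference in the DHT effect between genotypes was called for 0% of genes, members included. At an unadjusted p under 0.05 it would count for 1 member (Foxm1) and for 799 genes (7.13%).

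In the comparisons of 4 libraries with 4, which cannot give a p below 0.0286, genes were counted when the libraries of the groups did not overlap. With EtOH, Mcm10, Gins1, Rrm1 and Bub1b (4 of 22) were higher in SPOPmut and 0 were lower, beside 13.1% and 8.71% of all genes, but with lists of equal length 3 were higher and 3 lower. With DHT, 6 were higher in SPOPmut (those 4, Foxm1 and Mybl2) and 1 was lower (Mki67), beside 16% and 8.53% (5 and 2 with lists of equal length). In Control, 1 was higher with DHT (Rrm1) and 3 were lower (Cdt1, Foxm1 and Mybl2), beside 5.16% and 4.44% (1 lower with lists of equal length). In SPOPmut, 1 was higher with DHT (Rrm1) and 0 were lower, beside 9.14% and 4.53%. The shares of all genes belong to the full lists. With lists of equal length 21 genes of the set were tested, and the shares of all genes were not counted again. These comparisons share groups with each other.

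Taken by single regions, 60 of the 105 (57.1%) were called in all 16 libraries, against 48.9% of all regions called in at least 2. Between genotypes 7 were called more often in SPOPmut and 1 less often, beside 3.76% and 3.23% of all regions. With stricter peaks these became 3 and 2, without a recount over all regions. Between treatments 1 was called more often with DHT and 0 less often, beside 1.51% and 0.259%. At an unadjusted p under 0.05 (exact stratified test), 16 of the 105 would count for genotype and 11 for DHT. All regions were not counted at that threshold, so these 2 numbers have no background beside them. None of the 9 regions called lay within 1 kb of a listed start: 7 lay inside a gene body and 2 outside.

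More than 1 kb from a start (or, for genes without a listed start, from a gene end) were 67 regions, 27 in gene bodies and 40 outside. Of these, 26 were called in all 16 libraries, with a median percentile of 45.4, and 41 varied, with a median percentile of 15.5. Regions that gained or lost calls thus mostly ranked low in the lists. The 2 Rrm1 regions at 54 and 50.6 and the Gins1 region at 57.4 were the varying ones that ranked highest.

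**Figure D5:**
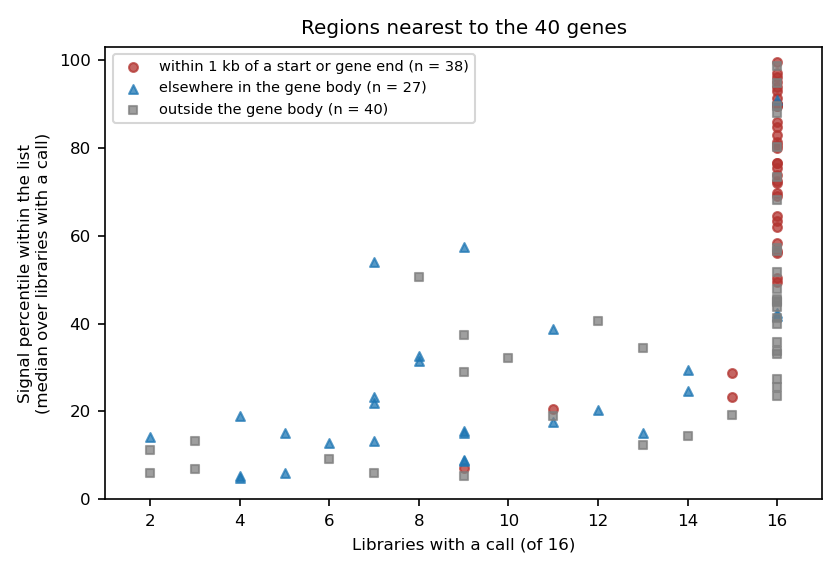
Median signal percentile within a library's list (y axis) against the number of libraries with a call (x axis, of 16) for the 105 regions, by location (symbols). Regions within 1 kb of a start or gene end sit mostly at 16 libraries and high percentiles, and most regions that vary rank below 40.

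Other genes of the same processes, taken from lists of names, moved as follows. Of 32 other replication genes, 17 were tested, and for genotype 0 were higher and 1 was lower: Gmnn, the CDT1 inhibitor geminin, with 3.25 ± 0.5, 2.5 ± 0.577, 2.25 ± 0.5 and 1.5 ± 0.577 called regions in Control EtOH, Control DHT, SPOPmut EtOH and SPOPmut DHT (SD, n = 4; adjusted p = 0.0358, exact permutation test). Cdc7, the kinase that fires origins, rose by 1.25 called regions with DHT (adjusted p = 0.0477, exact permutation test). Of 30 other mitosis genes, 19 were tested, 3 were higher in SPOPmut (Tpx2, Prc1 and Knl1) and 2 lower (Pttg1 and Bub3). Tpx2, the activator of Aurora A, had 1 called region in each Control library and means of 4 ± 0 and 5 ± 1.15 in SPOPmut EtOH and DHT. Pttg1, securin, had 4.5 ± 0.577 and 4 ± 1.15 in Control and 2 ± 0.816 and 1.5 ± 0.577 in SPOPmut (both adjusted p = 0.00325, exact permutation test).

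With DHT, Prc1, the midzone bundling protein, rose by 1.5 called regions (adjusted p = 0.0206) and Nuf2, of the outer kinetochore, changed by -2.38 (adjusted p = 0.0119, exact permutation test). Prc1 was also higher in SPOPmut, by 1.25 (adjusted p = 0.0237, exact permutation test). Of 26 genes of cycle entry and its brakes, 21 were tested, 4 were higher in SPOPmut (E2f6, E2f8, Cdkn1c and Tfdp2) and 6 lower (E2f3, Ccnd2, Cdk6, Cdkn1b, Cdkn2a and Rb1). E2f6 and E2f8, both repressor members of the E2F family, differed by 4.75 and 2.62 called regions, and the activator E2f3 by -2.38 (each adjusted p = 0.00325, exact permutation test). Ccnd1, cyclin D1, was the one gene of that list called for DHT, at -1.12 (adjusted p = 0.0119, exact permutation test). The median differences between genotypes of the 3 lists were 0, 0.25 and 0, beside 0 over all genes. Of all genes tested, 19.4% were higher in SPOPmut and 12.1% lower, and 5.41% were higher with DHT and 3.14% lower. Shares of called regions on whole chromosomes differed too, in SPOPmut against Control. They differed by 19.9% on chromosome 2 (Tpx2), 8.41% on 7 (Prc1 and E2f8) and 3.46% on 12 (E2f6). On chromosome 13 (Gmnn and E2f3) the difference was -12.55%, and on 11 (Pttg1) -4.92%. The part of these shifts in the differences of single genes was not tested.

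Properties of whole libraries moved with these results. The lists held 57245 to 69644 peaks, 57245 to 64521 in Control and 58800 to 69644 in SPOPmut. With lists cut to equal length the genotype calls of Mcm10, Gins1, Rrm1, Bub1b, Mki67 and E2f2 and the DHT call of Rrm1 held. That of Rrm2 was lost, while Cdc25a and Mybl2 were newly called higher in SPOPmut and Cdk1 lower, of 21 genes tested. Over all 10583 genes tested that way, 1993 were higher and 1754 lower. The share of called regions on chromosome 2 was 19.9% larger in SPOPmut than in Control, and this chromosome holds 8 of the 40 genes, among them Mcm10, Gins1, Bub1b and Mybl2. Chromosome 7 (Mki67, Rrm1 and Plk1) differed by 8.41%, and chromosome 4 (E2f2 and Cdc20) by -8.01%. With each chromosome's call rate taken out, all 7 genotype calls and the DHT call passed, under a setting that called 5520 genes for genotype in place of 3527. It also called Ccnb1 higher, although its counts hardly varied, and Ttk lower. The correction shifts whole-number counts by fractions, so a gene with an unchanged count can differ under it. A pass there therefore does not show that a call is independent of its chromosome. The genotype difference of Bub1b became 1.11 in place of 2, that of Rrm2 0.642 in place of 1, that of Mcm10 0.677 in place of 1 and that of Gins1 1.54 in place of 2, while that of Mki67 became -2.47 in place of -1.75. The share of regions called in both of 2 libraries ran from 0.83 to 0.908 of those called in either within a group and from 0.642 to 0.788 between groups.

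Marker genes of several cell types were also counted. Called regions stood at markers of every type listed, so their presence cannot check the prostate label. Called regions were counted at each of 5 luminal and 3 basal markers. Summed luminal calls were 23 to 25 in Control EtOH, 23 to 24 in Control DHT, 29 to 31 in SPOPmut EtOH and 27 to 32 in SPOPmut DHT. The basal sums were 28 to 31, 34 to 38, 27 to 30 and 30 to 32 in the same order. Called regions were also counted at all of the 4 stromal (sums 6 to 8, 6 to 7, 6 to 7 and 4 to 7), 3 endothelial (16 to 18, 13 to 16, 11 to 11 and 9 to 13) and 3 immune markers (7 to 8, 4 to 6, 7 to 8 and 9 to 12). Luminal sums were thus higher in SPOPmut and endothelial sums lower on average. With DHT, basal sums were lower in SPOPmut and immune sums higher, each without overlap, while with EtOH both overlapped between genotypes. The part of these marker differences in those at replication and mitosis genes was not tested.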

How the data were processed

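ATAC-seq peak lists of 16 libraries of mouse prostate organoids were used. Per the submitters' processing notes, the authors aligned reads to mm10 with Bowtie2 2.3.4.1, handled them with SAMtools 1.8 and called peaks with Genrich (version not given in the sources used here), here 1 list per library. The signal of each peak, the −log10 p at each peak and the score are the authors' own values as deposited. The smallest signal is 200, and signal served for ranks and filters inside 1 list, never between lists. Read depth is unknown, so list length is given in its place, and a call near the caller's threshold is less certain than one far above it.

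Merged regions were assigned by their midpoint to the nearest protein-coding gene body within 100 kb (RefSeq, GRCm38.p6, which has the same coordinates as mm10), and where several bodies covered a midpoint, to the shortest. Exons and introns were not resolved. Calls at regions called in at least 2 libraries were counted per gene and library, and the 11212 genes with at least 2 such regions were tested. Each factor was tested within the other by exact permutation (4900 arrangements, smallest p 0.000408), two-sided, and single regions by an exact stratified hypergeometric test, with Benjamini-Hochberg adjustment over all genes or regions and a threshold of 0.05. The interaction was tested by permuting treatment within genotype. The scripts were tested on simulated data (NumPy 2.4.6, SciPy 1.17.1, pandas 2.3.3 and Matplotlib 3.10.9 under Python 3.11.15).

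The genes, their roles and the other lists were chosen with earlier results of these data known. Values in every library are given for genes called in a gene test or with a called region and for Mki67, Top2a, Pcna, Mcm2, Cdk1, Ccnb1, Plk1, E2f1 and Foxm1; other lists name up to 3 genes per comparison with the largest change, and further called genes are named without values. Further regions and genes with values were chosen after these were seen. One gene of the luminal marker list is not reported here. Alternatives were stricter peaks, equal list length, 50% coverage, other assignments and filters, shares, chromosome correction, a replicate block and leaving out each library.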

Additional observations from a re-analysis of the deposited data

Results flagged for a closer look

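E2f2 in Control DHT had 8 called regions in replicate 3 and 6 in each of the other 3 libraries, which sets that library apart from its group. With whole numbers, 3 equal values and 1 other set a library apart by construction, so the usual chance rate of about 1 in 20 sets does not apply, and sets that ranged over 1 region, which hold the same pattern at other genes, were not screened. Foxm1 lost a called region with DHT in Control, from 2 to 1 in every library, and went from 1.5 ± 0.577 (SD, n = 4) to 2 in SPOPmut, so that the DHT effect differed by 1.5 called regions between the genotypes (permutation test, adjusted p = 0.511). Without adjustment that p was 0.00612, and 2 of the 4 SPOPmut libraries with EtOH already had 2 called regions.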

How the results depend on the processing

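Of 26 alternatives, all kept the genotype calls of Gins1 and Bub1b (highest adjusted p 0.0477, exact permutation test), and none reversed the direction of a gene call. Peaks of at least 400 in signal ended the genotype calls of Mcm10 (adjusted p = 0.073), Mki67 (0.0847), E2f2 (0.188), Rrm1 (0.27) and Rrm2 (0.73, exact permutation tests). They also left 3 regions higher and 2 lower in SPOPmut (without a recount over all regions), and a DHT to EtOH ratio of the list's share of 1.035 in place of 0.989. Deviations of same-numbered libraries from their group means correlated at -0.266 to 0.391 (median 0.115, 12 of 24 above 0.1) and those of other numbers at a median of -0.0363 (16 of 72 above 0.1). As not every pair exceeded 0.1 the numbers were not taken to pair libraries, although 8 of 16 libraries correlated best with their own number and replicate 2 had the shortest list in all 4 groups. With the replicate number as a block, genotype called 1838 genes in place of 3527 and 1 gene of the list lower (Mki67) in place of 2. The block also ended the call of Rrm2 (adjusted p = 0.0633, exact permutation test). For DHT the block called 0 genes in place of 959 (1720 at an unadjusted p under 0.05 by the exact block permutation, whose smallest p was 0.00781), and 0 of the list, with Rrm1 at an adjusted p of 0.149. Counting regions within 10 kb of a gene body gave 9 genes higher in SPOPmut (Pcna, Cdc45, Cdc20 and Mybl2 added) and 2 lower (Mki67 and E2f2) of 31 tested. Over all 13403 genes tested that way, 2259 were higher and 1094 lower. The DHT share ratio was then 1.026. Chromosome correction called 5520 genes for genotype and 2352 for DHT, shares of calls 2306 for DHT and equal list length 1446. For genotype, shares of calls added Mybl2 as higher and Cdk1 as lower, and 50% coverage added Cdc25a as higher. Over all genes these settings gave 2517 higher and 2399 lower, and 2400 higher and 1491 lower. Chromosome correction added Ccnb1 as higher and Ttk as lower, beside 2682 higher and 2838 lower of all genes. Mybl2 became lower with DHT with shares of calls and with chromosome correction (1 gene in place of 0), and over the 16 omissions of a library 0 to 1 genes were lower with DHT (1, Mybl2, without SPOPmut EtOH replicate 2 or 4). All 16 omissions kept the 7 genotype calls and the DHT call, and some added Cdc25a, Mybl2 or both as higher in SPOPmut. With lists of equal length 3 genes were lower without overlap in SPOPmut EtOH (0 as reported), 2 with DHT (1) and 1 with DHT in Control (3). The shares of all genes without overlap were not counted under that setting. Read depth, which would limit weak calls, is unknown.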
